A study of Mus musculus with 11 samples.

Results

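Type 1 molecular layer interneurons are GABAergic neurons of the cerebellar cortex. They were chosen from single-nucleus RNA sequencing of the mouse cerebellum with brainstem and cervical cord by a rule on counts of unique molecular identifiers (UMIs, each taken as 1 captured RNA molecule). A nucleus had to hold at least 500 genes and less than 5% mitochondrial UMIs, at least 1 UMI of Gad1 or Gad2, at least 1 of Tfap2b, and at least 2 of Sorcs3, with more Sorcs3 than Nxph1. Nuclei with any Lgi2 or Slc6a5, genes of Golgi and glycinergic cells, were left out, as were those with more than 1 UMI of the myelin genes Mog and Mag. Nuclei in which the granule cell genes Gabra6, Fat2, Chn2 and Etv1 made up 0.2% or more of UMIs were also left out. Of 186863 nuclei that passed the quality limits, among 189709 barcodes, 2958 (1.58%) were type 1. The same rule with at least 2 Nxph1 UMIs and more Nxph1 than Sorcs3 gave 970 type 2 nuclei (0.519%), which served for comparison. No barcode sequence of a type 1 nucleus occurred in more than 1 library.

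Molecular layer interneurons comprise the basket and stellate cells, which receive parallel fibre input from granule cells. Type 1 cells inhibit Purkinje cells, the output neurons of the cerebellar cortex, and are coupled to each other by gap junctions built from connexin 36, the product of Gjd2. Type 2 cells lack this coupling and mainly inhibit type 1 cells.

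The 11 samples came from male mice aged 8 to 12 weeks. All carried the floxed knockout-first Il12rb2 allele on both chromosomes. NestinCre/+Il12rb2fl/fl mice also carried the Tg(Nes-cre)1Kln transgene, in which the Nestin promoter drives Cre recombinase in precursors of neurons and of most glia and not in interneurons alone, and Il12rb2fl/fl mice served as controls. Experimental autoimmune encephalomyelitis (EAE) was induced with 200 µg of the myelin peptide MOG35-55 in complete Freund's adjuvant and 50 to 100 ng pertussis toxin, and tissue was taken on day 10. There were 4 samples of Il12rb2fl/fl mice with EAE (fl EAE) and 4 of NestinCre/+Il12rb2fl/fl mice with EAE (NestinCre EAE). Non-immunized mice gave 2 samples of Il12rb2fl/fl (fl naive 2 and 3) and 1 of NestinCre/+Il12rb2fl/fl (NestinCre naive 2). Replicates 1 to 3 of fl EAE and NestinCre EAE were sequenced in run 1. Their replicates 4 and fl naive 2 were in run 2, while the remaining naive samples were in run 3. The study lists 1 naive control library beside the EAE pair of run 2 and does not give its replicate number. Comparisons with naive mice that hold run as a term rest on this assignment. The libraries held 40761007 to 86063464 UMIs, and 13004 to 22903 nuclei of each passed. Type 1 nuclei numbered 182 to 366 per sample, with 763345 UMIs in NestinCre EAE 3 at the lowest and 2386327 in fl EAE 4 at the highest, and medians of 3446 to 6447 UMIs per nucleus. Levels are given as UMIs per 1000000 UMIs of the type 1 nuclei of a sample (CPM). Intronic reads were counted, so long genes gain UMIs, and levels are compared between samples or nuclei and not between genes.

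The rule fixed Sorcs3, Nxph1, Gad1, Gad2 and Tfap2b, so the label was checked on genes it did not use. Summed over samples, the type 1 nuclei held 57.1 CPM of the vesicular GABA transporter Slc32a1, 308 of parvalbumin (Pvalb) and 694 of Kit, a receptor tyrosine kinase of molecular layer interneurons. In type 2 nuclei the levels of these genes were 40.7, 268 and 651 CPM. Both selections thus held the genes shared by molecular layer interneurons. Markers of other cells were present as well, and no member of the lists that follow was at 0. Mature oligodendrocyte markers summed to 252 to 707 CPM over the type 1 samples, against 1715 to 3394 over all nuclei of the samples. Granule cell markers, some of which the rule limited, summed to 368 to 648 CPM, against 6961 to 7323 in granule nuclei. Purkinje cell markers summed to 304 to 486 CPM, against 379 to 705 over all nuclei, with 224 CPM of the calcium channel gene Itpr1 and 25.6 of Pcp2. Astrocyte markers summed to 119 to 193 CPM and endothelial and fibroblast markers to 3.77 to 14.4. The part of this RNA in the results was not tested.

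Genes reported for type 1 cells were higher in type 1 than in type 2 nuclei. Gjd2 was at 13.0 CPM in type 1 and 3.53 in type 2 nuclei, a 3.66-fold difference, and was higher in type 1 in 11 of 11 samples, although the sample ranges of 7.34 to 28.0 and 0 to 16.2 CPM overlapped. Lypd6, a modulator of nicotinic acetylcholine receptors, ranged from 187 to 295 CPM over the type 1 samples and from 2.38 to 21.3 over the type 2 samples. Ptprk, a receptor tyrosine phosphatase of cell contacts, ranged from 1066 to 1577 CPM in type 1 and from 29.7 to 277 in type 2 nuclei. Neither gene had overlapping ranges. The contrast follows from the choice of nuclei by Sorcs3 and Nxph1, and its differences are described here with no test.

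Among genes at 50 CPM or more in either type and higher in 11 of 11 samples, the 10 with the largest ratio on the type 1 side were Arhgef26, Enpp1, Lypd6, Chst9, Galnt18, Ptprk, Gldc, Megf11, Gm48261 and Adarb2. Arhgef26, a guanine nucleotide exchange factor gene, was at 312 CPM in type 1 and 11.3 in type 2 nuclei, or 27.5-fold higher. Enpp1, an enzyme that splits extracellular nucleotides, was 27.4-fold higher, and the O-glycosylation enzyme Galnt18 was 13.6-fold higher. Gldc, the glycine decarboxylase of the glycine cleavage system, was 9.87-fold higher at 459 against 46.5 CPM. Adarb2, a member of the RNA-editing deaminase family, stood at 4838 against 595 CPM, and the unclassified transcript Gm48261 lies within the Adarb2 gene on the same strand, so their reads cannot be told apart. On the type 2 side the 10 were Cdh22, Samd5, Acvr1c, Plekhg1, Lmo4, Sorcs2, Nrp1, Galnt14, Afap1l2 and Sash1. The cadherin Cdh22 stood at 13.5 CPM in type 1 and 570 in type 2 nuclei, and the transcriptional regulator Lmo4 at 15.5 and 137.

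**Figure D1:**
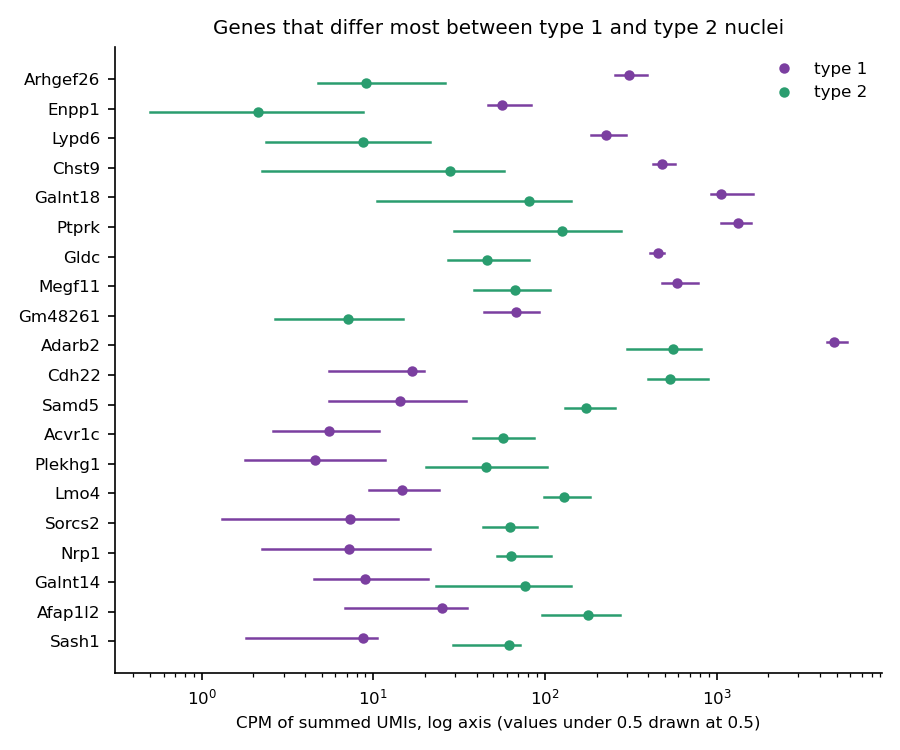
Levels of the 10 genes with the largest ratio towards each type, on a logarithmic axis of CPM, with points for the median and lines for the range over 11 samples. For Arhgef26, Lypd6, Ptprk and Adarb2 the lines of type 1 and type 2 nuclei lie apart, with type 1 above; for Cdh22 and Lmo4 they lie apart with type 2 above.

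The types differed in their receptors for glutamate. Of 9965 genes at 10 CPM or more in either type, 181 (1.82%) were at least 2-fold higher in type 1 and 234 (2.35%) at least 2-fold higher in type 2 nuclei in 11 of 11 samples. Nothing is read from these shares, since the rule used the contrast. Among 23 listed glutamate receptor genes, those on the type 1 side included the delta receptor Grid1 (1750 against 266 CPM) and the metabotropic receptors Grm8 (1023 against 218) and Grm3 (444 against 94.7). The 5 on the type 2 side were the NMDA receptor subunits Grin2b (247 in type 1 against 1089 in type 2) and Grin3a (212 against 883), the kainate receptor subunit Grik4 (23.1 against 107), the AMPA receptor subunit Gria1 (62.1 against 167) and Grm5 (133 against 573). Of 23 genes for GABA synthesis, transport and reception, the type 2 side held Gabra4 (10.0 against 26.6 CPM) and the type 1 side held none.

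Ion channel and adhesion genes lay on both sides. Of 47 channel genes, Kcnip4, a subunit of A-type potassium channels, was 2.94-fold higher in type 1 nuclei at 7439 against 2532 CPM. The 6 on the type 2 side were Kcnc1, Kcnd3, Kcnh1, Kcnh7, Cacna2d2 and Scn3a, with Kcnc1, a fast delayed-rectifier channel, at 109 against 317 CPM. Of 52 synaptic adhesion genes, 3 were on the type 1 side, namely Ptprk, Il1rapl1 (2948 against 1107 CPM) and Cdh12 (1956 against 628), and 10 on the type 2 side. The neuregulin receptor Erbb4 stood at 216 against 588 CPM, and the semaphorin receptor Nrp2 at 94.4 against 22.3.

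The edge of the rule was narrow in number. Of the type 1 nuclei, 88 held exactly 2 Sorcs3 UMIs and were the last inside. Just outside lay 65 nuclei with 1 Sorcs3 UMI and no Nxph1, 89 with neither and 21 with equal counts. A Nxph1 UMI was present in 342 type 1 nuclei. A stricter rule of at least 3 Sorcs3 UMIs and no Nxph1 left 2533 nuclei. Of all type 1 nuclei, 213 were among those scored as doublets, 798 held 6000 UMIs or more, and 209 (7.07%) held a UMI of a Hox gene, a family that is active in brainstem and cord and silent in the cerebellum. Per sample this share was 3.22 to 13.4% of type 1 and 3.70 to 14.3% of type 2 nuclei. It was 5.24 to 15.6% of nuclei of neither type. Those include nuclei of brainstem and cord and were not matched in UMIs. The comparison therefore cannot decide whether the Hox UMIs of type 1 nuclei are their own.

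The orphan nuclear receptor Rora, a regulator of cerebellar development, was not part of the rule and set a small portion of the type 1 nuclei apart. Its UMIs had a median of 19.03 per 1000 UMIs in type 1 nuclei, with 9.36 and 29.5 at the 5th and 95th percentiles. In type 2 nuclei the median was 15.1, with 1.29 and 25.5 at these percentiles. Under a limit of 5 per 1000, set after this distribution had been seen, lay 88 type 1 nuclei (2.97%) and 183 type 2 nuclei (18.9%). The share of type 1 nuclei under the limit was lowest in NestinCre EAE 1 at 1.45% and highest in fl EAE 3 at 5.28%. Of the 88 nuclei, 31 (35.2%) held a Hox UMI and 12 were among those scored as doublets.

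**Figure D2:**
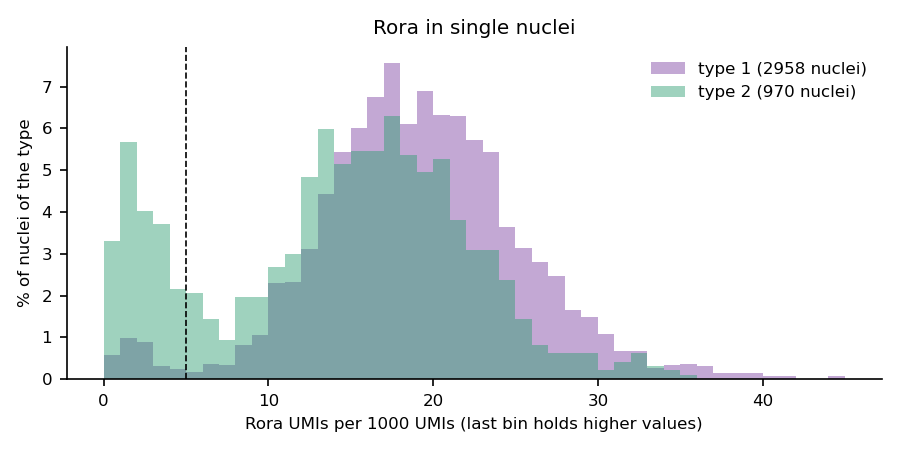
Share of type 1 (2958) and type 2 (970) nuclei by Rora UMIs per 1000 UMIs of the nucleus, with a dashed line at 5. The main peaks of both types overlap, with medians of 19.03 and 15.1 over all nuclei of each type, and the group under the line holds 2.97% of type 1 and 18.9% of type 2 nuclei.

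The type 1 nuclei that were low in Rora carried other genes. They held 2038 CPM of the contactin Cntn5 against 49.6 in the remaining type 1 nuclei, 3355 against 108 of the growth factor gene Nrg1 (ENSMUSG00000062991), and 831 against 20.8 of the guidance receptor Robo2. They held less Kit (43.0 against 737 CPM), Gldc (12.9 against 489), Adarb2 (417 against 5129) and Arhgef26 (33.3 against 330.2). As they were picked by their values, these levels are a description. By Kit, Gldc, Adarb2 and Arhgef26 the low nuclei did not match the name type 1 molecular layer interneuron. The low nuclei met the rule and were kept in the main fits, and their cell type was not tested. The low nuclei supplied 73.1% of all type 1 UMIs of Cntn5, 63.3% of Meis2, 46.1% of Hs3st4, 45.8% of Prkg1 and 26.5% of Ctnna3. With low nuclei left out of both types, the ratio of type 1 to type 2 levels rose from 6.58 to 16.1 for Grid1 and from 4.70 to 20.7 for Grm8, while the ratio of type 2 to type 1 levels was 4.30 before and 4.32 after for Grm5.

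Variation from nucleus to nucleus within the type 1 nuclei was described by the ratio of variance to mean. Of 2852 nuclei thinned to 2000 UMIs, 2805 genes had a mean of at least 0.1 UMI, and their median ratio of variance to mean was 1.07. The highest ratios were those of Nrg1 (9.0), the potassium channel gene Kcnd2 (8.92), the receptor phosphatase gene Ptprd (7.57), the channel subunit gene Dpp10 (6.16) and Galntl6 (5.52). For Nrg1, 67.2% of the type 1 UMIs came from the nuclei low in Rora. Kcnd2 levels rose with Ralyl and with the splicing factor Rbfox1 from nucleus to nucleus, with median correlations over the 11 samples of 0.63 and 0.60. Rora correlated negatively with Nrg3 (−0.42) and Opcml (−0.41). These correlations are over nuclei that share a library, those low in Rora included, and are given as a description.

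The first question of the design was whether type 1 cells were as frequent in both genotypes. In fl EAE replicates 1 to 4 they made up 1.64%, 1.40%, 1.38% and 1.88% of the nuclei that passed. In NestinCre EAE replicates 1 to 4 the shares were 1.55%, 1.51%, 1.40% and 1.60%. The groups overlapped, with the highest share in fl EAE 4 (exact Clopper-Pearson 95% interval, which covers counting error only, 1.69 to 2.09%). The naive samples had 1.65% and 1.63% in fl naive 2 and 3 and 1.71% in NestinCre naive 2.

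The means were 1.51% ± 0.0846 (SD, n = 4) in NestinCre EAE and 1.58% ± 0.234 (SD, n = 4) in fl EAE, and the difference of −0.0643 percentage points was smaller than the spread between samples (exact two-sided permutation test, p = 0.686, where the design can give 0.0286 at the least). Of the type 1 and type 2 nuclei together, type 1 nuclei made up 74.8% ± 2.22 in NestinCre EAE and 75.5% ± 0.821 in fl EAE (SD, n = 4 each, exact permutation p = 0.714). Of the type 2 nuclei, 27.1% and 35.2% were low in Rora in NestinCre EAE 3 and 4, against 13.4 to 17.6% in fl EAE. The share among both types was not tested with the low nuclei left out. For the share of all nuclei that passed, the sign of the difference depended on a single library, since without fl EAE 4 it was 0.0366. When each nucleus was thinned to 1000 UMIs before the rule was applied, fewer nuclei reached the rule's minimum, and the shares were 0.288% ± 0.0284 and 0.228% ± 0.0399 (SD, n = 4 each), with the higher mean in NestinCre EAE (exact permutation p = 0.0571). The nuclei that passed include those of brainstem and cord, which were pooled with the cerebellum before sorting.

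**Figure D3:**
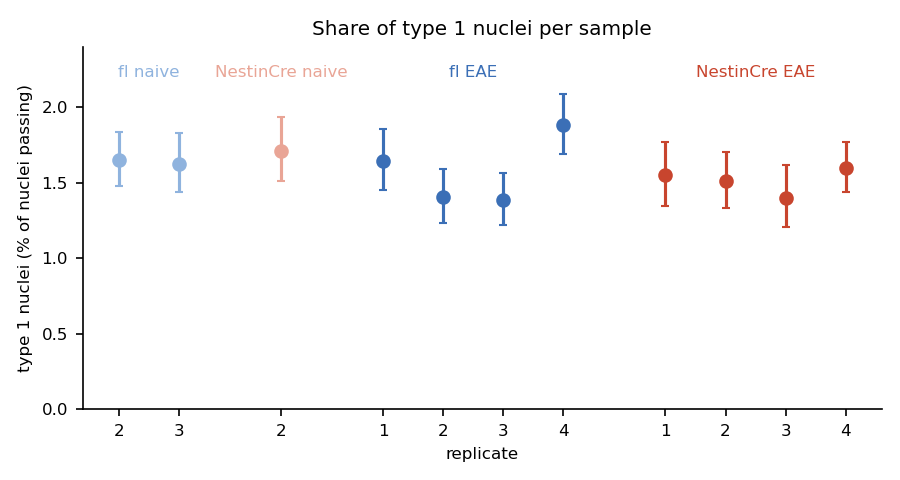
Type 1 nuclei as a percentage of all nuclei that passed, per sample, with exact Clopper-Pearson 95% intervals as bars. The 4 NestinCre EAE samples (1.40 to 1.60%) lie within the range of the 4 fl EAE samples (1.38 to 1.88%).

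Il12rb2, the targeted gene (chr6:67268302-67353172, minus strand, GRCm39), was read at low and overlapping levels in type 1 nuclei of both genotypes. In fl EAE replicates 1 to 4 it stood at 16.6, 11.7, 10.3 and 8.38 CPM. In NestinCre EAE replicates 1 to 4 it stood at 9.02, 20.5, 9.17 and 9.44 CPM, and in the naive samples at 14.7 and 10.5 (fl) and 15.5 (NestinCre). Each value rests on 7 to 25 UMIs. The means were 12.0 ± 5.66 CPM in NestinCre EAE and 11.7 ± 3.49 in fl EAE (SD, n = 4 each), with a log2 fold change of 0.10 (SE 0.31, edgeR adjusted p = 0.991). The sign of this value turned without NestinCre EAE 2 (−0.20) and with doublets left out (−0.00765). UMIs are counted over the whole gene with its introns, the exon that Cre removes is not given in the sources used here, and reads outside it check nothing about the deletion. The partner chain Il12rb1 was seen with 0 to 2 UMIs per sample, and no level is given for it. Of Nes and Gh, read as mouse genes, 2 Gh UMIs occurred in NestinCre EAE 4 and 2 Nes UMIs in NestinCre naive 2, with none elsewhere in type 1 nuclei. These counts are no measure of the Nestin-Cre transgene.

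In EAE the type 1 nuclei of NestinCre mice held more RNA of the MHC class I genes B2m, H2-K1, H2-D1, H2-T23 and H2-Bl, of the class II genes Cd74 and H2-Ab1, of Ctss, Cd52, the interferon-induced GTPase Igtp, the complement gene C4b and the immediate early gene Egr1, and less of L3mbtl4. Of 10481 genes tested, 13 (0.124%) passed at an adjusted p of 0.05 (edgeR quasi-likelihood test on summed UMIs, with sequencing run in the model), 12 higher (0.114%) and 1 lower (0.00954%), and 666 had an unadjusted p under 0.05. The count ran from 5 without fl EAE 1 to 52 without fl EAE 4 when 1 sample was left out, with 8 without NestinCre EAE 1 and 46 without NestinCre EAE 4, and it was 4 with no run term and 139 with no filter on low counts. The median log2 fold change of all genes tested was 0.01. These p-values measure the spread between samples. Values of the groups did not overlap for 379 genes (3.62%), and 11 of the 13 were among these, the exceptions being H2-Bl and L3mbtl4.

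MHC class I molecules present peptides from inside the cell to CD8 T cells and need B2m, the invariant light chain (chr2:121977957-121983594, plus strand, GRCm39). In fl EAE replicates 1 to 4 B2m stood at 7.36, 8.08, 12.5 and 7.96 CPM. In NestinCre EAE it stood at 65.9, 24.4, 48.5 and 58.8 CPM, so that the lowest NestinCre EAE sample lay above the highest fl EAE sample. The naive samples, at 4.40 and 12.0 CPM (fl) and 6.20 CPM (NestinCre), lay within or under the fl EAE range. B2m was higher in NestinCre EAE by 2.51 on the log2 scale (SE 0.30, edgeR adjusted p = 0.000802).

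The classical heavy chain gene H2-K1 (chr17:34214987-34219321, minus strand, GRCm39) was near 1 CPM in fl EAE, on 1 to 4 UMIs per sample. It stood at 0.920, 0.897, 1.47 and 1.68 CPM in fl EAE replicates 1 to 4 and at 33.4, 18.6, 10.5 and 22.03 in NestinCre EAE, a log2 fold change of 3.96 (SE 0.46, adjusted p = 0.000802, edgeR). H2-D1, the other classical heavy chain gene, stood at 28.5, 35.9, 28.8 and 27.2 CPM in fl EAE against 66.8, 57.7, 40.6 and 60.3 in NestinCre EAE, and had a log2 fold change of 0.97 (SE 0.17, adjusted p = 0.025, edgeR). Both genes separated the groups with no overlap, and H2-D1 differed by less. H2-D1 no longer passed in 11 of 20 alternatives, among them the model with no run term (0.97).

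The nonclassical genes H2-T23 and H2-Bl also passed. H2-T23, which encodes Qa-1, had 3 UMIs in the whole fl EAE group, and its 4 NestinCre EAE samples stood at 9.92, 4.89, 2.62 and 13.1 CPM. H2-Bl stood at 43.2, 47.6, 32.4 and 20.1 CPM in fl EAE and at 109, 119, 115 and 25.7 in NestinCre EAE, with a log2 fold change of 1.27 (SE 0.19, adjusted p = 0.00608, edgeR). In H2-Bl the 3 NestinCre samples of run 1 lay far above all fl EAE samples and the sample of run 2 lay among them. Genes of the H2 region share near-identical sequence, so that reads may be split between copies and the counts of single members are uncertain. Of 20 listed MHC class I presentation genes, 10 had enough UMIs to be tested, 4 passed as higher, and the median log2 fold change of the 10 was 0.89. A gene could enter the test through its NestinCre EAE samples alone, so this median supports no statement on the list. Of the 9 inflammatory genes that the study named from these samples, which is therefore not an independent list, 6 were tested and 5 passed as higher, against 0.114% of all genes. The filter on low counts could admit these genes through NestinCre EAE alone, so this count supports no statement on the list.

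**Figure D4:**
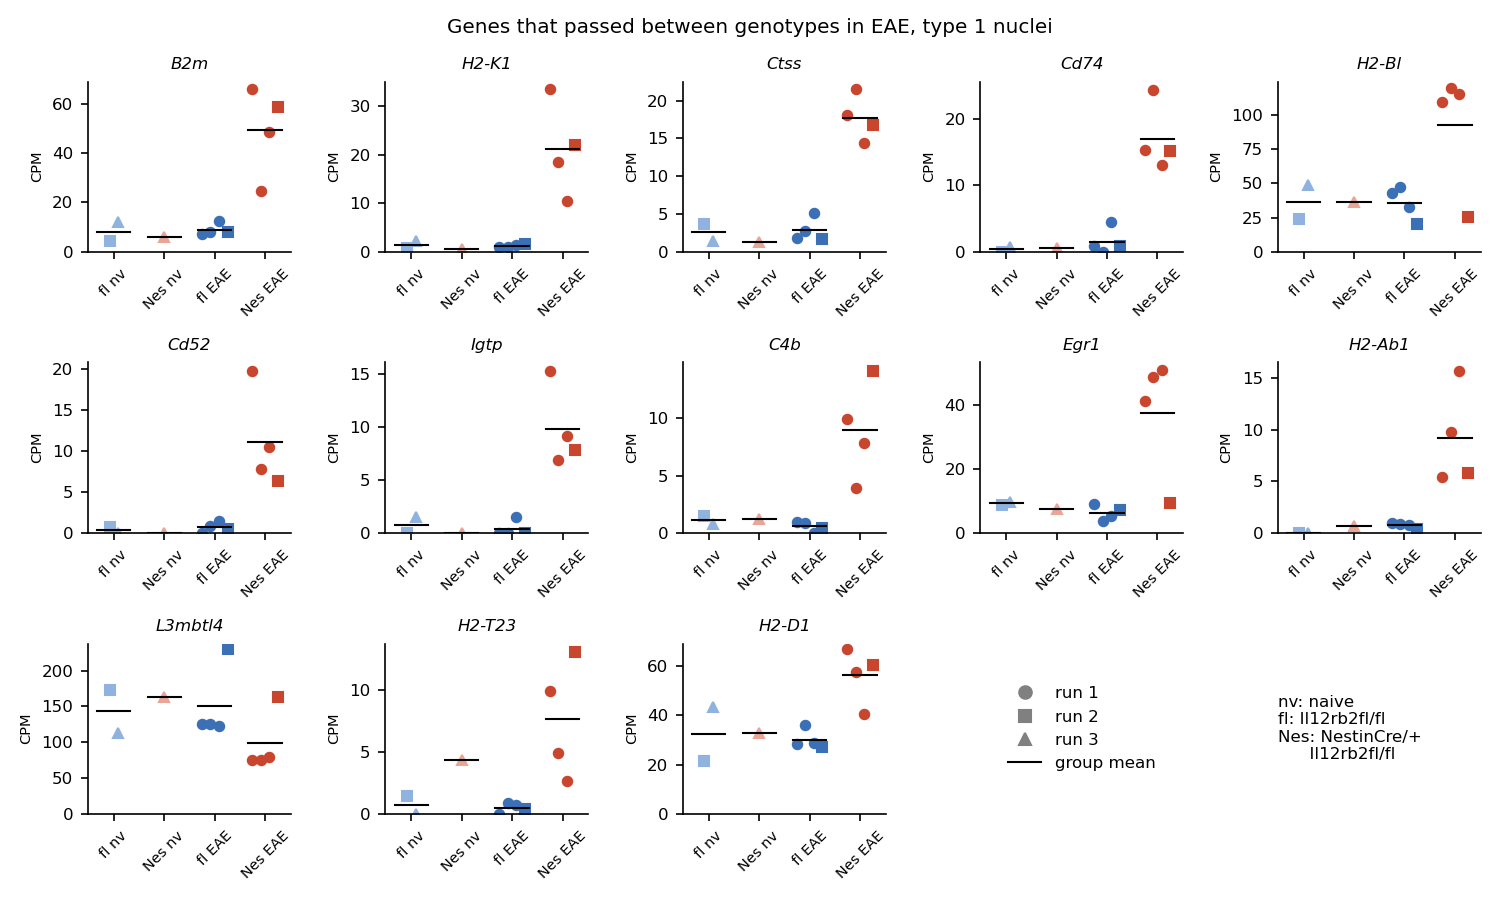
CPM in type 1 nuclei for the 13 genes that passed between genotypes in EAE, with 1 point per sample, shapes for the sequencing run and lines for group means. For B2m, H2-K1, Ctss and Cd74 the 4 NestinCre EAE points lie above all others; for Egr1 and H2-Bl the run 2 sample of NestinCre EAE, at 9.44 and 25.7 CPM, lies among the points of the other groups.

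Cd74, H2-Ab1, Ctss and Cd52 are known from immune cells rather than neurons. Cd74, the invariant chain of class II, stood at 0.920, 0, 4.42 and 0.838 CPM in fl EAE replicates 1 to 4 and at 15.3, 24.4, 13.1 and 15.2 in NestinCre EAE (log2 fold change 3.41, SE 0.50, edgeR adjusted p = 0.00608). The lysosomal protease gene Ctss, whose product trims the invariant chain, stood at 1.84, 2.69, 5.16 and 1.68 CPM against 18.05, 21.5, 14.4 and 16.8 (log2 fold change 2.68, SE 0.37, edgeR adjusted p = 0.00414). The class II beta chain gene H2-Ab1 had a mean of 0.743 ± 0.231 CPM in fl EAE and 9.17 ± 4.79 in NestinCre EAE (SD, n = 4 each), with a log2 fold change of 3.46 (SE 0.60, edgeR adjusted p = 0.0184). Each fl EAE sample held 1 UMI of H2-Ab1, so its SD there is only that of depth. The leukocyte surface gene Cd52 had means of 0.698 ± 0.635 and 11.1 ± 6.08 CPM (log2 fold change 3.80, SE 0.61, edgeR adjusted p = 0.0107). In each of these genes all NestinCre EAE samples lay above all fl EAE samples. The fl EAE levels rest on few UMIs per sample, 0 to 6 for Cd74, 2 to 7 for Ctss and 0 to 2 for Cd52.

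Igtp and C4b were close to 0 in fl EAE. Igtp, an immunity-related GTPase induced by interferon-gamma (chr11:58089840-58098417, plus strand, GRCm39), was read with 2 UMIs in the fl EAE group, all in replicate 3, and stood at 15.3, 6.84, 9.17 and 7.87 CPM in NestinCre EAE. C4b, which encodes complement component 4, had 3 UMIs in fl EAE and stood at 9.92, 3.91, 7.86 and 14.2 CPM in NestinCre EAE. With so few UMIs the size of the difference is given as a ratio of summed levels with its 95% counting interval. It was 28.5 (7.45 to 242) for Igtp, 19.8 (6.38 to 99.4) for C4b and 17.7 (5.68 to 89.4) for H2-T23. The edgeR adjusted p was 0.0107 for Igtp and C4b and 0.0206 for H2-T23, whose call was lost by DESeq2. Of 21 listed interferon-induced GTPases, 2 had enough UMIs to be tested and Igtp passed, against 0.114% of all genes that passed as higher. Both could enter the test through NestinCre EAE alone, so this count supports no statement on the list. Gbp2, the other one tested, had a log2 fold change of 4.41 and an adjusted p of 0.0734 (edgeR). Of 42 antiviral interferon-stimulated genes, 8 were tested and none passed, 2 had an unadjusted p under 0.05 against 666 of all 10481 genes, and the median log2 fold change was 0.43. The same limit on what could be tested holds for them. All 42 together summed to 170.1, 191, 187 and 169 CPM in fl EAE replicates 1 to 4 and to 335, 289, 254 and 231 in NestinCre EAE. These sums did not overlap and were not tested. Of 15 receptors and transducers of interleukin-12 and interferons, 11 were tested and none passed, with a median of 0.13.

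A sequence that interferon-induced transcription factors can bind, GAAANNGAAA, was searched on both strands of the 250 bases before the start of each gene in RefSeq (GRCm38.p6). Promoter entries were found for 6 of the 12 genes that were higher, and 4 of these held it, against 3.46% of 27025 genes. The motif TTCNNNGAA was held by 1 of the 6, Igtp, against 8.13% of genes. The 12 genes were picked by their values in these data, and the 27025 are not the genes tested here. No enrichment is therefore read from either share. The windows below show the matches in capitals, each written 5′ to 3′ along the strand of its gene. A match is a description of the letters and not of a bound site.
B2m, chr2:122147538-122147567, plus strand: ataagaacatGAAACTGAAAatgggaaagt
Ctss, chr3:95526755-95526784, plus strand: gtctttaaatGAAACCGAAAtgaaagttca
Igtp, chr11:58199512-58199541, plus strand: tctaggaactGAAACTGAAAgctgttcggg
Igtp, chr11:58199501-58199530, plus strand, TTCNNNGAA: aactagccatTTCTAGGAActgaaactgaa
H2-T23, chr17:36032806-36032835, minus strand, match on the other strand: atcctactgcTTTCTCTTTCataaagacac
Both Igtp windows overlap, while its matches of the motifs lie next to each other and share no base.

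Egr1, a transcription factor gene switched on within minutes of neuronal activity, stood at 9.20, 3.59, 5.16 and 7.12 CPM in fl EAE replicates 1 to 4. In NestinCre EAE it stood at 41.5, 48.9, 51.1 and 9.44 CPM, so that replicates 1 to 3, which formed run 1, were high and replicate 4 lay just above the highest fl EAE sample. The log2 fold change was 2.30 (SE 0.36, edgeR adjusted p = 0.0107). The naive samples ranged from 7.44 to 9.73 CPM. L3mbtl4, a gene of the chromatin-binding MBT family, was the gene that was lower, with 125, 126, 122 and 230 CPM in fl EAE and 75.8, 75.2, 79.9 and 163 in NestinCre EAE (log2 fold change −0.61, SE 0.10, edgeR adjusted p = 0.0184). In both groups replicate 4 was the highest, and within each run the NestinCre sample or samples lay under the fl samples.

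No other listed immediate early gene passed over all samples. Of 18 listed, 11 were tested, Egr1 alone passed, 6 had an unadjusted p under 0.05 against 666 of all 10481 genes, and the median log2 fold change was 1.34. A gene could enter the test through NestinCre EAE alone here too, so nothing is read from this median, and a difference between runs was not tested. Nr4a1, a nuclear receptor induced by activity, stood at 18.4, 6.28, 6.64 and 20.5 CPM in fl EAE and at 112, 67.4, 18.3 and 17.3 in NestinCre EAE, and Fos at 14.7, 9.87, 2.21 and 12.2 against 48.7, 60.6, 22.3 and 8.92. Neither passed over all samples (adjusted p = 0.38 and 0.388, edgeR). In the run 2 pair both genes were lower in the NestinCre sample, and for Nr4a1 NestinCre EAE 3 lay under fl EAE 1 of the same run and under fl EAE 4, so that its groups overlapped within run 1 as well. With run 1 alone, 31 genes passed, 23 of them higher (0.234% of 9822), by edgeR with 3 samples per group. From the list these included Egr1 (log2 fold change 3.01, edgeR adjusted p = 2.3e-05), Nr4a1 (2.81, adjusted p = 0.00655), Fos (2.44, adjusted p = 0.00655), Btg2 (2.92, adjusted p = 0.00972) and Nr4a3 (2.93, adjusted p = 0.0443). Genes outside the list passed as higher too, among them Per1 (2.04, edgeR adjusted p = 0.025), Errfi1 (1.79, adjusted p = 0.0106) and S100a8 (5.15, adjusted p = 0.00186). Of the 11 listed genes, Jun (0.30), Junb (1.54), Nr4a2 (1.84), Ier2 (1.18), Dusp1 (1.63) and Homer1 (0.95) did not pass in run 1 alone, with edgeR adjusted p of 0.112 to 0.916. The summed level of the list was 135 to 241 CPM in fl EAE, 714, 511, 257 and 173 in NestinCre EAE replicates 1 to 4, and 119 to 186 in the naive samples.

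Of the 13 genes, B2m, H2-K1, Cd74 and Ctss passed in 20 of 20 alternatives, and the other 9 were lost in at least 1. Without fl EAE 1 the calls of Cd52 (log2 fold change 3.45), Igtp (4.22), H2-Ab1 (3.50), H2-Bl (1.24), H2-D1 (0.94), H2-T23 (3.69), Egr1 (2.33) and L3mbtl4 (−0.60) were lost. Without fl EAE 2 those of H2-Ab1 (3.49) and L3mbtl4 (−0.61) were lost, and without fl EAE 3 those of Egr1 (2.07), H2-Ab1 (3.41), H2-D1 (0.95), H2-T23 (4.18) and L3mbtl4 (−0.60). Without fl EAE 4 the calls of C4b (3.51), H2-D1 (0.91) and H2-T23 (3.28) were lost. Leaving out NestinCre EAE 1 ended the call of H2-D1 (0.86), NestinCre EAE 2 those of H2-D1 (0.98) and L3mbtl4 (−0.57), and NestinCre EAE 4 those of C4b (3.52), H2-Ab1 (3.45), H2-D1 (0.91) and H2-T23 (3.29). With 1 sample left out, some genes of low count no longer had enough UMIs to be tested: C4b, Cd52, H2-T23 and Igtp without NestinCre EAE 1, H2-Ab1 without NestinCre EAE 2, and Cd52, H2-Ab1 and Igtp without NestinCre EAE 3. DESeq2 passed 12 of the 13 and not H2-T23 (4.00), and with the replicate number as a block H2-T23 (3.82), H2-D1 (0.94) and L3mbtl4 (−0.61) were lost. H2-D1 was also lost with doublets left out and with run 1 alone, and with L3mbtl4 when only nuclei under 6000 UMIs were used. C4b, Cd52, H2-Ab1, H2-T23 and Igtp had too few UMIs to be tested with no run term, run 1 alone or nuclei under 6000 UMIs only. The same held for Igtp with doublets left out and for C4b and Igtp under the stricter rule. It also held for H2-T23 with nuclei holding Hox UMIs left out and for C4b with the nuclei low in Rora left out. With no run term 4 genes passed, and with the nuclei low in Rora left out 22 passed, without C4b and with Ifitm3, Erbb4 and Ebf1 among those gained.

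Genes by which these neurons signal were counted by list. With 0.124% of all genes passing, a count of 0 in lists of this size is at the background and is no result about their members. None of 25 tested genes for GABA synthesis, transport and reception passed (median log2 fold change 0.05), none of 23 glutamate receptor genes (0.02), none of 3 gap junction genes, none of 47 channel genes (0.02) and none of 53 synaptic adhesion genes (−0.10). Of 18 genes of molecular layer interneurons none passed (median 0.11), nor did any of 21 neuronal genes that the study named (−0.08). Of these 21, 14.3% had a log2 fold change above 0, against 51.5% of all genes tested, and as the study chose them on these samples the list is not independent. Some members of the lists passed in alternatives. With run 1 alone they included Grm5 (−1.48, edgeR adjusted p = 0.00972) and the channel gene Kcnh7 (−1.19, edgeR adjusted p = 0.0322). With nuclei under 6000 UMIs only they included Grm8 (0.43, edgeR adjusted p = 0.0264) and the adhesion gene Ptprt (−0.61, edgeR adjusted p = 0.0412). In that setting Nrg1, which the study also named, passed as higher (1.06, edgeR adjusted p = 0.0162). Erbb4, 1 of the 21 genes that the study named, stood at 193, 227, 265 and 293 CPM in fl EAE and at 134, 266, 159.8 and 160.5 in NestinCre EAE. Its log2 fold change was −0.43 (SE 0.17, edgeR adjusted p = 0.743) over all type 1 nuclei, −0.71 (edgeR adjusted p = 0.0412) with nuclei under 6000 UMIs only and −0.84 (edgeR adjusted p = 0.000884) with the nuclei low in Rora left out, and it also passed with nuclei holding Hox UMIs left out. Of 11 glucocorticoid-responsive genes none passed and 5 had an unadjusted p under 0.05 (median 0.68), against 666 of the 10481 genes tested.

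Markers of immune cells were summed beside these results, with no test. The summed level of 18 markers of microglia, phagocytes, T and NK cells was 12.0, 23.3, 30.2 and 24.7 CPM in fl EAE replicates 1 to 4 and 80.3, 64.5, 95.6 and 38.8 in NestinCre EAE, and 19.5 to 20.5 in the naive samples. None of the listed markers was at 0 over all samples, though Cd3e, Cd3g, Nkg7 and Ms4a7 had 2 to 4 UMIs each. P2ry12 and Cx3cr1 were left out of the sum of 18 markers after their values were seen. P2ry12, at 142 CPM, lies inside Med12l on the opposite strand, and Med12l stood at 466 CPM. With both kept, the 12 microglia and phagocyte markers summed to 180, 191, 175 and 194 CPM in fl EAE replicates 1 to 4 and to 209, 233, 234 and 148 in NestinCre EAE, so that NestinCre EAE 4 lay under all fl EAE samples. Of these 12 markers 5 were tested and none passed, 4 had an unadjusted p under 0.05 against 666 of all 10481 genes, and the median log2 fold change was 2.32. As they could enter the test through NestinCre EAE alone, nothing is read from this median. In alternatives some of them passed. S100a8 passed as higher with run 1 alone (log2 fold change 5.15, edgeR adjusted p = 0.00186). S100a9 passed as higher with nuclei under 6000 UMIs only (3.58, edgeR adjusted p = 0.0069). It also passed with the nuclei low in Rora left out (3.08, edgeR adjusted p = 0.0466) and under the stricter rule. Lyz2 passed without fl EAE 3. T and NK cell markers alone summed to 4.60 to 15.3 CPM in fl EAE and to 6.32 to 11.5 in NestinCre EAE. A UMI of the 18 markers occurred in 29.0%, 13.6%, 26.9% and 11.2% of the type 1 nuclei of NestinCre EAE replicates 1 to 4 and in 4.69%, 3.32%, 11.8% and 9.65% of those of fl EAE. These shares overlapped, since NestinCre EAE 4 lay under fl EAE 3. With these 327 nuclei left out, an alternative chosen after seeing the data, 11 genes passed, C4b did not (log2 fold change 3.69), and Cd52, H2-T23 and Igtp no longer had enough UMIs to be tested. The part of immune-cell RNA in the results was not tested.

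The same genes were compared in other nuclei of the same samples. In NestinCre EAE the mean level in type 1 nuclei was 0.71 times that in granule nuclei for B2m, 0.53 times for H2-K1, 0.60 for Ctss, 0.42 for Igtp and 0.73 for Cd52. B2m, Ctss and Igtp were lower in type 1 than in granule nuclei in every NestinCre EAE sample. H2-K1 was 1.11 times as high in NestinCre EAE 2, and Cd52 was 1.03 times as high in NestinCre EAE 1. CPM is a share of UMIs, and levels per nucleus were not compared. H2-Bl and Egr1 were 33.4 and 2.02 times as high in type 1 as in granule nuclei, and 2.04 and 2.34 times as high as in type 2 nuclei. In NestinCre EAE 4 alone Egr1 was lower in type 1 than in granule nuclei, at 0.62 times. The log2 ratio of genotypes in granule nuclei was 2.74 for B2m, 3.70 for H2-K1, 2.97 for Ctss and 0.70 for Egr1.

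**Figure D5:**
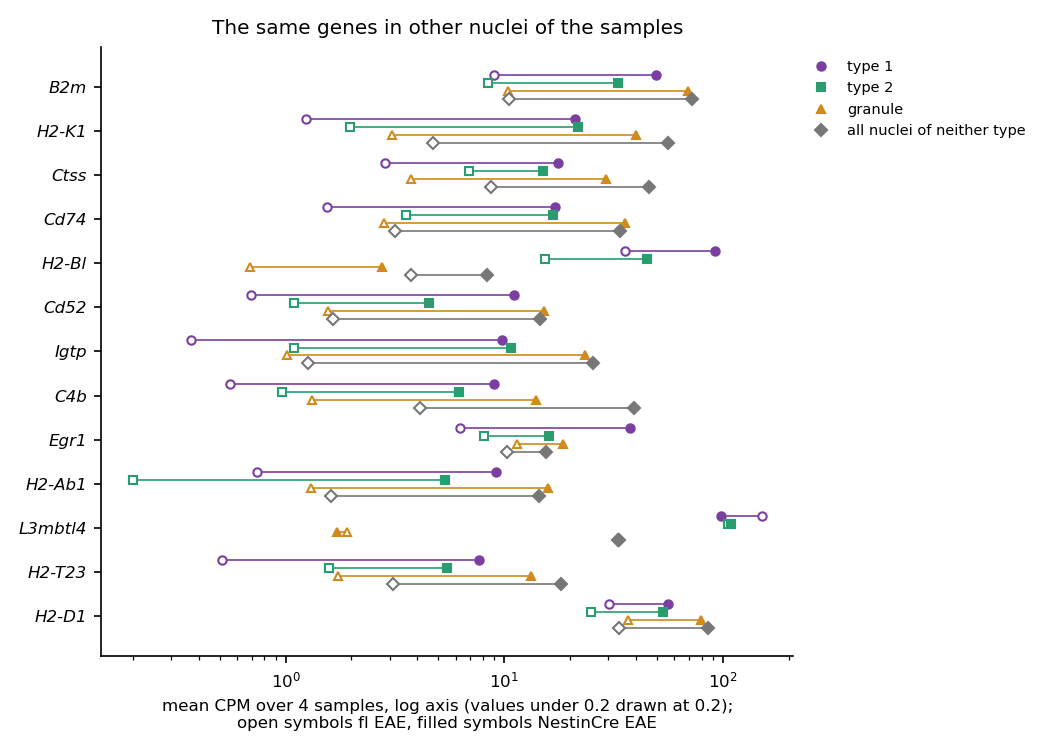
Mean CPM of the 13 genes over 4 samples on a logarithmic axis, with open symbols for fl EAE and filled symbols for NestinCre EAE, in type 1, type 2, granule and all nuclei of neither type. B2m and H2-K1 move to the right in all 4 sets of nuclei, and H2-Bl and L3mbtl4 are far lower in granule nuclei than in interneurons.

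Whether the genotype difference itself differed between nuclei was tested with the sample as a block. Against type 2 nuclei, 0 of 10537 genes passed (0.0%) by edgeR and 0 by DESeq2, and 623 had an unadjusted p under 0.05. The differences were 0.51 (SE 0.52) for B2m and 1.39 (SE 0.56, edgeR adjusted p = 0.83) for Egr1 on the log2 scale. The count rested on the samples included, with 28 genes passing without NestinCre EAE 2, 7 without fl EAE 1, 2 without NestinCre EAE 1 and 1 without fl EAE 3. The make-up of the type 2 nuclei also differed between samples. Nuclei low in Rora made up 17.6%, 13.4%, 15.8% and 13.9% of the type 2 nuclei of fl EAE replicates 1 to 4 and 13.2%, 12.8%, 27.1% and 35.2% of those of NestinCre EAE. With low nuclei of both types left out, an alternative chosen after seeing the data, 1 gene of 9832 passed, Gabrg3 (difference −2.97 on the log2 scale, adjusted p = 0.00672, edgeR). Against granule nuclei, a comparison added after seeing the data, 0 of 14115 genes passed (0.0%) by edgeR and 1 by DESeq2, and 816 had an unadjusted p under 0.05. B2m differed by −0.39 (SE 0.25, edgeR adjusted p = 0.926), Egr1 by 1.73 (SE 0.38, edgeR adjusted p = 0.106) and Nr4a1 by 1.49 (SE 0.28, edgeR adjusted p = 0.0716). With run 1 alone 23 genes passed against granule nuclei, Egr1 (2.23, adjusted p = 0.00287) and Nr4a1 (1.70, adjusted p = 0.0073) among them. Without NestinCre EAE 4, 19 passed, without fl EAE 3, 10, and without NestinCre EAE 3, 7.

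The comparison of fl EAE with fl naive asked what the disease changed in control mice. With run as a term, its naive side rested on fl naive 2 alone. Disease and this 1 sample cannot be told apart, so no statement on the disease is drawn from the values below. Of 11786 genes tested 3 (0.0255%) passed, 1 higher (0.00848%) and 2 lower (0.017%), and 543 had an unadjusted p under 0.05. Kcnq5, which encodes a subunit of the M-type potassium channel, stood at 288, 310, 288 and 326 CPM in fl EAE replicates 1 to 4 and at 112 and 236 in fl naive 2 and 3 (log2 fold change 1.50, SE 0.23, edgeR adjusted p = 0.0187). Fgf1, a fibroblast growth factor, stood at 33.1, 49.4, 37.6 and 33.5 CPM against 109 and 32.9 (log2 fold change −2.16, SE 0.35, edgeR adjusted p = 0.0254), and the Arhgap26 entry ENSMUSG00000118193 at 130, 83.4, 84.8 and 81.3 against 250 and 89.0 (log2 fold change −1.74, SE 0.24, edgeR adjusted p = 0.0116). In both Fgf1 and Arhgap26, fl naive 2 was high. The other control, fl naive 3, lay within the fl EAE range for Arhgap26 and under all fl EAE samples for Fgf1, on the side opposite to the called decrease, and NestinCre naive 2 stood at 54.5 and 94.8 CPM. B2m did not pass between fl EAE and fl naive (log2 fold change 1.07, SE 0.76, edgeR adjusted p = 1). Prkg1, a cGMP-dependent kinase gene, was likewise highest in fl naive 2 at 405 CPM and did not pass (log2 fold change −1.17, SE 0.35, edgeR adjusted p = 1). It was the 1 gene gained, at −1.91, when the nuclei low in Rora were left out and 4 genes passed.

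Only run 2 held both EAE and naive samples, so the fit with run as a term separated disease from run through fl naive 2 and the replicate 4 samples. With no run term 0 genes passed, and the values of Kcnq5, Fgf1 and Arhgap26 came to 0.85, −0.89 and −0.85. With the nuclei scored as doublets left out 0 passed as well, with values of 1.46, −2.19 and −1.78. The calls were also lost for Fgf1 without fl EAE 3 (−2.12) or NestinCre EAE 2 (−2.17) and for Kcnq5 without fl EAE 4 (1.42), and without NestinCre EAE 4, 6 genes passed. Run and disease cannot be told apart for the remaining samples.

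In naive mice the genotypes were compared with 1 NestinCre naive sample, and the spread was taken from the other groups. With run as a term, this sample was set against fl naive 3 of the same run. The other control, fl naive 2 of run 2, had no weight in the fold change. Of 11786 genes, 2 (0.017%) passed, both higher in NestinCre naive 2. Genotype and this 1 sample cannot be told apart, so no statement on the genotype in naive mice is drawn from these values. Hs3st4, a heparan sulfate sulfotransferase gene, stood at 44.0 and 11.2 CPM in fl naive 2 and 3 and at 130 in NestinCre naive 2 (log2 fold change 3.59, SE 0.39, edgeR adjusted p = 0.000273), and Cntn5 at 148 and 21.7 against 217 (3.39, SE 0.48, edgeR adjusted p = 0.00711). Both were higher in the nuclei low in Rora, of which fl naive 2 held 13, fl naive 3 held 4 and NestinCre naive 2 held 8. With those nuclei left out Cntn5 did not pass (2.22), while Hs3st4 (2.53) and 4 other genes did, and with no run term neither of the pair passed (2.21 for Hs3st4 and 1.32 for Cntn5).

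The genotype difference in EAE less that in naive mice passed for 4 of 11786 genes (0.0339%), all negative. These were Cntn5 (−4.11, SE 0.52, adjusted p = 0.00127), Hs3st4 (−3.79, SE 0.43, adjusted p = 0.000555), Ebf1, a transcription factor gene (−2.14, SE 0.35, adjusted p = 0.0325), and Ctnna3, an alpha-catenin gene (−1.56, SE 0.26, adjusted p = 0.0355), all by edgeR on the log2 scale. The naive side of the contrast is 1 NestinCre sample set against fl naive 3 of the same run. No statement that the genotype differences differ is therefore drawn from these values. Ebf1 stood at 69.0, 87.0, 68.6 and 86.3 CPM in fl EAE and at 32.5, 37.1, 27.5 and 69.2 in NestinCre EAE, against 67.5 and 44.9 in fl naive and 104 in NestinCre naive 2. With no run term none of the 4 passed (−2.07, −2.41, −1.68 and −0.94 for Cntn5, Hs3st4, Ebf1 and Ctnna3). With the nuclei low in Rora left out 8 genes passed, and Cntn5 (−1.97) did not. None of the 12 genes that were higher in NestinCre EAE passed in this comparison, in which B2m had a value of 3.38 (SE 0.83, edgeR adjusted p = 0.244).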

How the data were processed

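Nuclei were sorted by the authors on a DNA stain and sequenced by a 3′ method. The deposited matrices hold raw UMI counts per gene and barcode with no normalization. Per the labels, Cell Ranger 6.0.2 and GRCm39 were used; the file headers name version 7.0.0 for run 1 and 6.0.2 for runs 2 and 3. Intronic reads were counted by the authors. The members, gene lists and tests were chosen with earlier results of these data known.

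UMIs of 25827 genes were summed per sample over the type 1 nuclei with Python 3.11.15 and scanpy 1.11.5. Tests on the sums used the quasi-likelihood method of edgeR 4.0.16 (R 4.3.3), with run as a term, TMM scaling and the filterByExpr filter. Adjusted p-values are Benjamini-Hochberg values over all genes tested, with a threshold of 0.05. The genotype comparison in EAE used 8 samples, and the comparisons with naive mice used 1 fit of 11 samples. Scripts were tested on simulated data. Shares were compared by exact permutation over 70 assignments. Nuclei with the highest Scrublet scores, 0.8% per 1000 barcodes of a sample, were marked as doublets and kept, and left out in an alternative. Granule nuclei, for comparison, held 0.5% or more of UMIs in the 4 granule cell genes and no Gad1, Gad2, Mog or Mag. DESeq2 1.42.0 and the other alternatives are given in the closing section. Genes were named by a rule: the interleukin-12 receptor genes, genes that passed, members of the lists, and the 10 largest ratios between types; other genes, among them those of the nuclei low in Rora, were chosen after their values were seen. Coordinates are those of GENCODE vM39 (GRCm39), which held 25613 of 25827 identifiers. The fold changes that the authors report were not used. Some members of the gene lists are counted and not reported here by name.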

Additional observations from a re-analysis of the deposited data

Results flagged for a closer look

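In 46 groups of 4 samples, levels of the named genes were checked for a sample far from the other 3, and 10 were found. The limit would mark about 1 in 20 groups if the 4 values were independent and from 1 population. Here replicate 4 came from another run, the genes share samples and some values rest on few UMIs. The number found is therefore not set against chance. Replicate 4 of NestinCre EAE, the sample of run 2, stood apart in H2-Bl at 25.7 CPM and in L3mbtl4 at 162.6 CPM, and replicate 4 of fl EAE in L3mbtl4 at 230.1 CPM. NestinCre EAE 2 stood apart in Il12rb2 at 20.5 CPM and in Ctnna3 at 225.7 CPM. In fl EAE, replicate 3 stood apart in B2m at 12.5 CPM, in Igtp at 1.47 CPM and in Hs3st4 at 69.3 CPM, and replicate 1 in Arhgap26 (ENSMUSG00000118193) at 129.7 CPM and in Ctnna3 at 178.4 CPM.

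In the interaction test, the genotype difference in EAE less that in naive mice passed at −4.11 on the log2 scale for Cntn5, −3.79 for Hs3st4, −2.14 for Ebf1 and −1.56 for Ctnna3. The naive side rests on 1 NestinCre sample of run 3 and 0 genes passed with no run term, so that the test supports no statement that the differences differ, and the nuclei low in Rora supplied 73.1% of the type 1 UMIs of Cntn5 and 46.1% of those of Hs3st4. The part of these nuclei in the differences was not tested.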

How the results depend on the processing

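For the genotype difference in EAE, where 13 genes passed, the count was 139 with no filter on low counts, 4 with no run term, 31 with run 1 alone, 21 with the stricter rule, 26 with nuclei under 6000 UMIs only, 22 with the nuclei low in Rora left out, and 5 to 52 with 1 sample left out (5 without fl EAE 1, 8 without NestinCre EAE 1, 52 without fl EAE 4 and 46 without NestinCre EAE 4). DESeq2 gave 16. For EAE against naive (3 genes) the count was 10 with no filter, 0 with no run term, 0 with doublets left out, 5 with the stricter rule and 2 to 6 with 1 sample left out. For the genotype difference in naive mice (2 genes) it was 108 with no filter, 0 with no run term and 5 with the low nuclei left out, and for the interaction (4 genes) it was 137, 0 and 8. Against type 2 nuclei (0 genes) it was 73 with no filter, 1 with the low nuclei of both types left out and 0 to 28 with 1 sample left out. Against granule nuclei (0 genes) it was 1 with DESeq2, 23 with run 1 alone and 0 to 19 with 1 sample left out. The share difference of −0.0643 percentage points reversed to 0.0607 after thinning and to 0.00856 with run 1 alone, and ran from −0.129 to 0.0366 with 1 sample left out, where 0.0366 is the value without fl EAE 4. The cause of these shifts was not tested. Of 330 alternatives for single genes in which the gene had enough UMIs to be tested, 273 kept direction and side of the threshold. A further 55 kept the direction and no longer passed, and 2 reversed, both for Il12rb2 (−0.00765 with doublets left out and −0.197 without NestinCre EAE 2, where leaving out 1 sample gave −0.197 to 0.241).

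Replicate numbers were not taken to pair the samples: same-numbered EAE samples had correlations of their deviations of 0.0144, 0.0749, −0.00283 and 0.0282. This check cannot exclude pairing. The replicate 4 samples share run 2 and had 0.0282, while fl EAE 4 and NestinCre EAE 1 of another run had 0.119. With the replicate block 11 genes passed in place of 13, and the share difference stayed at −0.0643 percentage points (exact sign-flip p = 0.75, where 0.125 is the smallest possible). Fits of EAE against naive on runs 2 and 3 alone and without fl naive 2 were not run, since the contrast could not be fitted. Totals of 2 to 4 UMIs over the fl EAE samples limit what can be said of Igtp, C4b, H2-T23, Cd52 and H2-Ab1.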
